A study of Danio rerio with 2 samples.

Results

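Myelin is the stack of glial membrane that insulates axons, and a small set of abundant proteins holds its layers together. The genes examined here, in whole brain of zebrafish, encode such structural proteins and the axon-facing myelin glycoprotein MAG. They were chosen by symbol, as the rows of the deposited table named mpz, mag, plp1a, plp1b or any form of mbp, which gave 5 genes of the 27095 in the table. One RNA sequencing library came from wild-type males and the other from wild-type females, each from the pooled brains of 5 fish, and the sources used here give no age or strain. The study asked which genes differ between the sexes in the brain. A single pool stands for each sex, which leaves the spread between fish unknown. No test was therefore possible, and no difference below has a replicate check.

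In the central nervous system myelin is made by oligodendrocytes, and in peripheral nerves by Schwann cells. Compaction needs adhesion on the outer face of the membrane and adhesion on its inner, cytoplasmic face. The immunoglobulin-like protein P0 serves the outer face of peripheral myelin in mammals, and fish also carry P0 in central myelin. Myelin basic protein (MBP) binds the cytoplasmic faces, and the myelin-associated glycoprotein MAG sits on the innermost membrane, facing the axon.

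The male library held 62248792 estimated counts and the female library 64300988. Genes are called measured where their mean reached 1 CPM (reads per 1000000 reads, after scaling both libraries to a common size), which held for 14756 genes and for all 5 myelin genes. Ratios are log2 of the male over the female library, so a negative value means more scaled reads in the female library. Intervals are at the 95% level and reflect counting error alone. All 10 neuron markers were measured, summing to 6039 CPM (male) and 5829 CPM (female). The brain samples also held transcripts of yolk, liver and egg genes, at 21.3 CPM (male) and 1507 CPM (female) over 10 genes, and their part in the results below was not tested.

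All 5 myelin genes had somewhat fewer scaled reads in the male library, by 2.01% for mag to 11.96% for mbp. Once a trend of the ratio with gene span was removed, mag stood at a log2 ratio of 0.00. With a trend on expression level removed instead, mag stood at -0.10. None of the 5 came near a 2-fold difference. The end of any interval farthest from equality was 1.19-fold, for mbp. A gene was called where it was measured, differed 2-fold or more and had an interval clear of equality. By that rule 0 of 5 were called in either direction, against 1.06% of measured genes called on the male side and 2.70% on the female side. Those shares come from 156 and 399 genes, a split that became 203 and 328 with the trend on expression level removed. A log2 ratio below 0 is common in itself, since 50.3% of measured genes had one. A whole interval below 0 was found for 30.8% of them, and for all 5 myelin genes. Among the 5505 genes with at least as many reads as mbp the median was 0.05, so a ratio below 0 was less common there.

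Among the adhesion genes of the outer membrane face, mpz encodes P0. It lies on chromosome 2 from 44321001 to 44344400 on the minus strand (Zv9, as for every position here). The male library held 31697 of its reads and the female library 38032, or 517 against 583 CPM. The female library was thus 1.13-fold higher by counting (interval 1.11 to 1.15), a log2 ratio of -0.17 (interval -0.20 to -0.15).

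The genes plp1b and plp1a are a duplicated pair in zebrafish and encode membrane-spanning proteins of the sheath. The copy plp1b, on chromosome 5 from 24937056 to 24946834 (minus strand), had 23885 male against 28498 female reads. That is 389 against 437 CPM and a log2 ratio of -0.17 (interval -0.19 to -0.14). The other copy, plp1a, on chromosome 14 from 18477639 to 18496683 (plus strand), had 6600 against 7298 reads. Its 108 against 112 CPM gave a log2 ratio of -0.06 (interval -0.10 to -0.01), closer to equality than plp1b. Summed over the pair there were 30485 male and 35796 female reads. How reads that match both copies were assigned is not given in the sources used here, so the division between them is uncertain.

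The gene of the cytoplasmic face, mbp in the table and now named mbpa, lies on chromosome 19 from 22298337 to 22316927 (minus strand). It had the fewest reads of the 5, 2968 male and 3585 female, or 48.4 against 54.9 CPM. Its log2 ratio of -0.18 (interval -0.25 to -0.11) had the widest interval of the 5. It was close to those of mpz and plp1b, which lay below it, at -0.24 and -0.23 against -0.20, with the expression trend removed. The second MBP gene, mbpb, is not among the 5, because the table lists it as sb:cb183. That row, on chromosome 16 from 8034037 to 8066755, is listed at 0 in both libraries. So are 10315 of the 27095 genes, among them the endothelial cadherin gene cdh5 and the sodium channel gene scn8aa, so the 0 is not read as a measured absence.

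The axon-facing glycoprotein gene mag, on chromosome 15 from 31969725 to 31982530 (plus strand), had 29853 male and 32396 female reads. At 487 against 497 CPM it was the member closest to equality, with a log2 ratio of -0.03 (interval -0.05 to -0.01). That ratio turned to 0.00 with the span trend removed and to -0.10 with the expression trend removed. No other row of the table overlapped mpz, mag, plp1b or mbp. The only row overlapping plp1a was LOC100537500 on the opposite strand, listed at 0 in both libraries.

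**Figure D1:**
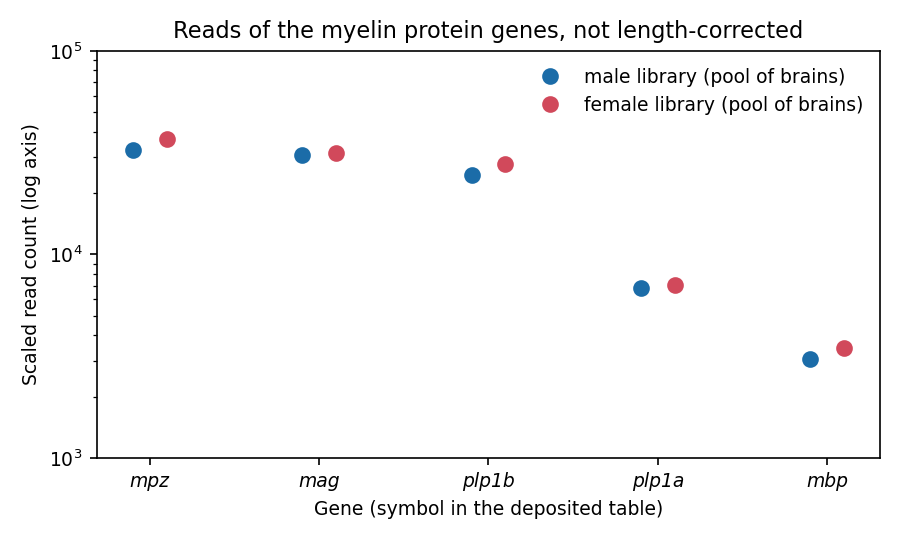
Scaled read count (log axis) of each myelin protein gene in the male and the female library, 1 point per library, not corrected for gene length. mpz, mag and plp1b sit between 24630 and 36882 scaled reads, plp1a at 6806 and 7077 and mbp at 3061 and 3477. The female point is the higher in each pair. For mag the log2 ratio is 0.00 with the span trend removed and -0.10 with the expression trend removed.

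The male to female ratios of the 5 genes were not all alike beyond counting error. In the difference between the ratios of a pair of genes the size factors cancel, and its interval (normal, on log counts) was computed for all 10 pairs. It can still move when a trend of the ratio with gene span or expression level is removed, an alternative applied to the pairs after their values had been seen. Among mpz, plp1b and mbp each pairwise interval held 0 in the scaled reads, with mpz against plp1b at -0.01 (interval -0.04 to 0.02) and mpz against mbp at 0.01 (interval -0.06 to 0.08). With the span trend removed mpz stood below plp1b, at -0.05 (interval -0.08 to -0.02). The ratios of mag and plp1a also lay within counting error of each other, at 0.03 (interval -0.03 to 0.08). The other 6 pairs had intervals that excluded 0, with either trend removed as well. Of these, plp1a stood above mbp by 0.13 (interval 0.04 to 0.21). With the expression trend removed that became 0.09 (interval 0.002 to 0.17), barely clear of 0.

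mag stood above mbp by 0.15 on the log2 scale (interval 0.08 to 0.23), which became 0.10 (interval 0.02 to 0.17) with the expression trend removed. mag stood above plp1b by 0.14 (interval 0.10 to 0.17), and mpz stood below mag by a difference of -0.14 (interval -0.18 to -0.11). Within the duplicated pair, plp1b stood below plp1a by a difference of -0.11 (interval -0.16 to -0.06), or -0.08 (interval -0.13 to -0.03) with the span trend removed. These intervals hold no variation between fish or between library preparations, which cannot be estimated from 1 pool per sex.

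**Figure D2:**
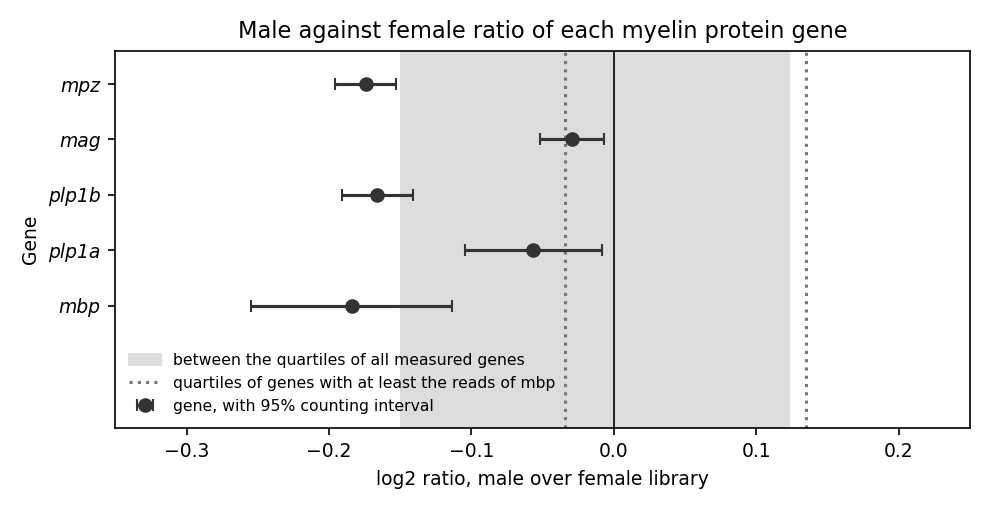
log2 ratio of male over female (x axis) for each gene (y axis), with 95% counting intervals as bars, over the range between the quartiles of all measured genes (grey) and the quartiles of the genes with at least as many reads as mbp (dotted). mpz, plp1b and mbp sit between -0.18 and -0.17, and plp1a and mag at -0.06 and -0.03. mag goes to 0.00 with the span trend removed and to -0.10 with the expression trend removed.

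Placed among all genes, none of the 5 ratios was extreme, but 3 of them (mpz, plp1b and mbp) lay below the first quartile. The median distance from 0 was 0.13 over all measured genes. The median log2 ratio of the 5 was -0.17, against -0.00 for all measured genes, whose quartiles were -0.15 and 0.12. Of measured genes, 40.3% had a ratio at least as far from 0 as mpz, and 87.2% one at least as far as mag.

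Deeply read genes vary less, and for them the place was lower. There were 5505 measured genes with at least as many reads as mbp, with a median of 0.05 and quartiles of -0.03 and 0.13. Of these, 5.07% had a ratio at or below that of mpz, 5.40% at or below plp1b and 4.76% at or below mbp. For plp1a that share was 19.2%, and for mag 26.1%. These shares were computed with no trend removed and were not recomputed with a trend removed. The ratio of plp1b became -0.12 with the span trend removed and -0.23 with the expression trend removed. In a bulk library, fewer cells of a type and less RNA per cell cannot be told apart.

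**Figure D3:**
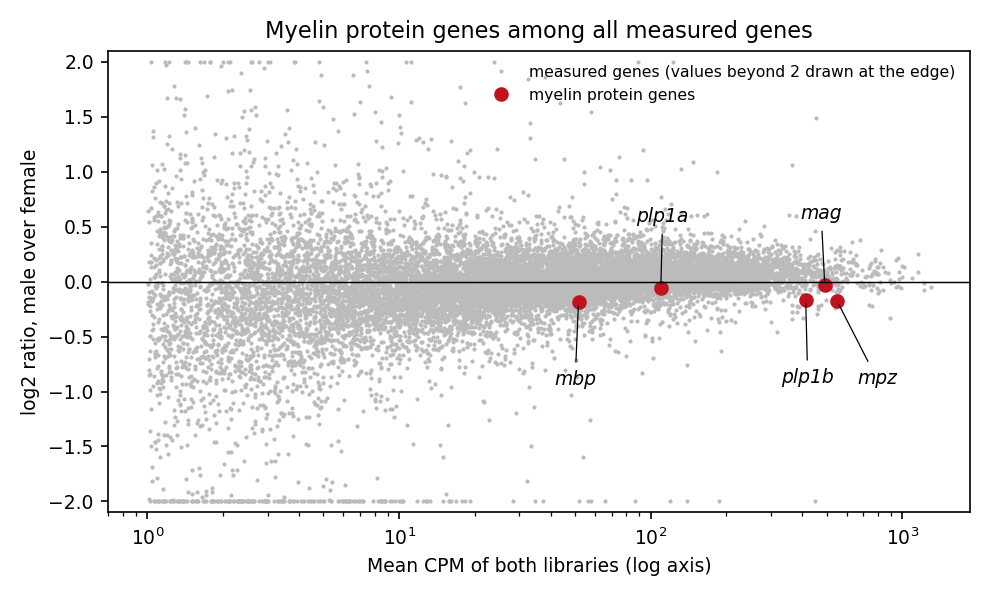
log2 ratio of male over female (y axis) against mean CPM of both libraries (log x axis) for 14756 measured genes in grey, with the 5 myelin genes in red. The spread of the grey points narrows with read number. mpz and plp1b lie in the lower part of the genes at their level, with some genes lower still. mag lies closer to equality (at 0.00 with the span trend removed and -0.10 with the expression trend removed).

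Abundance was compared between the 5 genes within each library. Transcript lengths were not used here, and a read count grows with transcript length, so reads and reads per kilobase of genomic span are both given. Neither is a level per transcript, because span includes introns. The 5 genes together held 0.153% of male reads (exact interval 0.152 to 0.154) and 0.171% of female reads (0.170 to 0.172).

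By reads, mpz came first with 33.4% of the 5-gene sum among males and 34.6% among females, the order of libraries in every pair of values that follows. It was followed by mag with 31.4% and 29.5%, and by plp1b with 25.1% and 26.0%. The other 2 held far smaller shares, 6.95% and 6.65% for plp1a and 3.12% and 3.26% for mbp. The reads of mpz exceeded those of mag by 1.06-fold and 1.17-fold.

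Per kilobase of span the first 3 changed places. plp1b, with the shortest span of 9.78 kb, led with 36.8% and 38.1%, and mag followed with 35.1% and 33.1%. mpz, with a span of 23.4 kb, came after them at 20.4% and 21.3%. The order among mpz, mag and plp1b is therefore not settled by these values.

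The gap between those 3 genes and the others was present on both scales. plp1b had 3.62-fold the reads of plp1a in males and 3.90-fold in females, and 7.05-fold and 7.60-fold per kilobase of span. For equal levels, the plp1b transcript would have to be longer than that of plp1a by the read ratio. That holds only if reads matching both copies were divided rightly, which is uncertain. Whether the counts of plp1a and mbp are complete was not tested. mpz had 10.7-fold and 10.6-fold the reads of mbp, and 8.48-fold and 8.43-fold per kilobase of span. plp1a had 2.22-fold and 2.04-fold the reads of mbp, with 2.17-fold and 1.99-fold per kilobase of span.

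**Figure D4:**
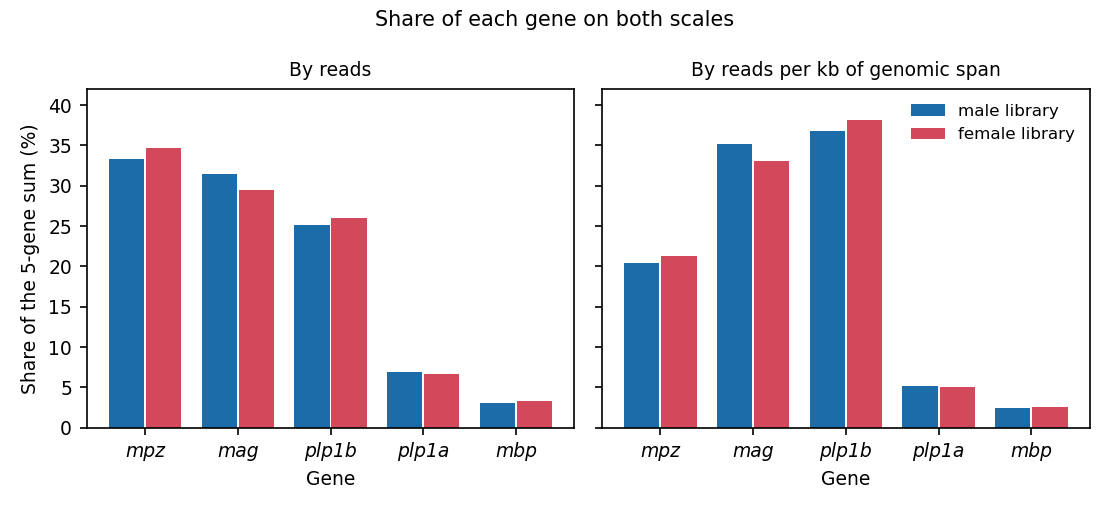
Share of each gene in the sum of the 5 (percent), by reads on the left and by reads per kilobase of genomic span on the right, for the male and the female library (bars, 1 value each). mpz leads on the left with 33.4% and 34.6% and plp1b on the right with 36.8% and 38.1%, while plp1a and mbp stay under 7% on both.

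By reads alone and with no length correction, mpz ranked 140 of all genes among males and 83 among females, mag 170 and 147, and plp1b 297 and 203. The rank of plp1a was 2889 and 2628, and that of mbp 5757 and 5244. The genes nearest to mpz in the scaled reads of the 2 libraries (distance over 2 values on the log2 scale) were the polyubiquitin gene ubc at 0.05, the neuronal splicing factor gene nova1 at 0.06 and the glutamine synthetase gene glula at 0.07. Their log2 ratios were -0.11, -0.09 and -0.24.

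Relatives of the myelin proteins that are not confined to myelin were examined next. The relatives of plp1a and plp1b include the neuronal glycoprotein genes gpm6aa (73018 male against 81665 female reads, log2 ratio -0.07) and gpm6ab (-0.06). They also include gpm6ba, at -0.02 (interval -0.04 to 0.01), and gpm6bb, at 20114 against 25990 reads and -0.28 (interval -0.31 to -0.25). Relatives of P0 were mpzl1l at -0.13 and mpzl2b at -0.13, while mpzl3 was listed at 0. The lectin gene cd22, of the same family as mag, stood at -0.05. None of these 7 measured relatives was called, beside 1.06% (male side) and 2.70% (female side) of all measured genes. All 7 lay below 0 and 4 had a whole interval below 0, beside 50.3% and 30.8% of all measured genes. The median of the 7 was -0.07.

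Other genes of the myelin sheath also lay mostly below 0. Of 24 matched genes 21 were measured, and cd59, tppp3 and plekhb1 were listed at 0. Their median log2 ratio was -0.15, 17 lay below 0 and 13 had a whole interval below 0, beside 50.3% and 30.8% of all measured genes. By reads the leading genes were tspan2a (tetraspanin, -0.04), zwi (0.14) and the claudin gene cldn19 (-0.09). Of the 21, 4 lay above 0, among them the tetraspanin gene cd9a at 0.10 (interval 0.04 to 0.16). The genes cldnk and cnp were picked with their values in view. The oligodendrocyte claudin gene cldnk stood at 4534 against 5628 reads (-0.22, interval -0.28 to -0.17). The cyclic nucleotide phosphodiesterase gene cnp, whose product lies in the non-compact cytoplasm of myelin, stood at 1410 against 2019 reads (-0.43, interval -0.53 to -0.33).

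The only sheath gene called was mal, a proteolipid of membrane transport, on the male side (1.06% of all measured genes). It had 163 against 68 reads and 2.66 against 1.04 CPM, with a log2 ratio of 1.34 (interval 0.93 to 1.78). The lowest value in that list was anln at -0.64. Its product, anillin, is best known from cell division, and it scaffolds septins in mammalian myelin.

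Genes of myelin lipid synthesis had 11 measured members of 12, with gal3st1b listed at 0. Their median of -0.07 turned to 0.03 with the expression trend removed and to -0.10 with the span trend removed. The galactosyltransferase gene ugt8, which makes galactosylceramide, stood at -0.07, the fatty acid elongase gene elovl1b at -0.18 and the aspartoacylase gene aspa at 0.16. The elongase gene elovl7b was called on the female side with 28 against 106 reads (-1.81, interval -2.49 to -1.22), at a mean of only 1.04 CPM. No other gene of the list was called, beside 1.06% (male side) and 2.70% (female side) of all measured genes.

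Upstream of the sheath, 0 of 11 measured transcription factor genes were called, beside 1.06% (male side) and 2.70% (female side) of all measured genes. The median of the 11 was -0.02, or 0.01 at a minimum of 5 CPM. It was -0.09 with the span trend removed, -0.06 with the expression trend removed and -0.07 with library totals. Of the 11, those with most reads were tcf7l2 (-0.02), zeb2a (0.01) and nkx6.2 (0.03). The value farthest from 0 was that of nkx2.2b (87 against 164 reads, -0.82, interval -1.22 to -0.44). The lineage factor genes olig2 and sox10 stood at -0.14 and 0.01, and olig1 at 0.37. Of 11 precursor genes 8 were measured, and cspg4, ptprz1b and sox6 were listed at 0. None of the 8 measured genes was called, against the same 1.06% and 2.70%. Their median was 0.01, negative when scaled by library totals or with either trend removed. The precursor genes bcan, lhfpl3 and traf4a stood at 0.01, 0.04 and 0.01, and the growth factor receptor gene pdgfra at -0.40 (232 against 325 reads).

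Schwann cells, which make peripheral myelin, also use mpz, so their genes were listed as markers of another cell type. Of 14 genes 13 were measured, with a median of -0.02, and 0 were called. Over all measured genes, 1.06% were called on the male side and 2.70% on the female side. The Schwann cell gene prx (periaxin) was listed at 0 in both libraries, which, as for mbpb, is not read as a measured absence. The sum over the list was 436 CPM for males and 427 CPM for females. Many of these genes are also expressed elsewhere in the brain, such as ncam1b (-0.04), tfap2a (-0.05) and ngfra (0.27), and egr2a lay farthest from 0 at 0.57. The part of peripheral myelin in the mpz reads was not tested.

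On the axon side, genes of the node and of axon-glia contact lay slightly above 0. Of 18 matched genes 15 were measured, and cntnap1, scn8aa and adam22 were listed at 0. Of the 15 measured genes 11 were above 0 and 4 below, beside 50.3% of all measured genes below 0. The median of the 15 was 0.08, or 0.04 with library totals and 0.05 with either trend removed. It lay between the quartiles (-0.03 and 0.13) of the genes with at least as many reads as mbp. All of the 15 but rtn4r and nrcamb had that many reads. Of the 15, 0 were called, beside 1.06% (male side) and 2.70% (female side) of all measured genes. The nodal sodium channel gene scn8ab stood at 0.15, the adhesion gene nfasca (neurofascin) at 0.07 and nrcama at 0.24. The sums of this list were 3051 CPM (male) and 2841 CPM (female), whereas those of the 5 myelin genes were 1548 and 1683.

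**Figure D5:**
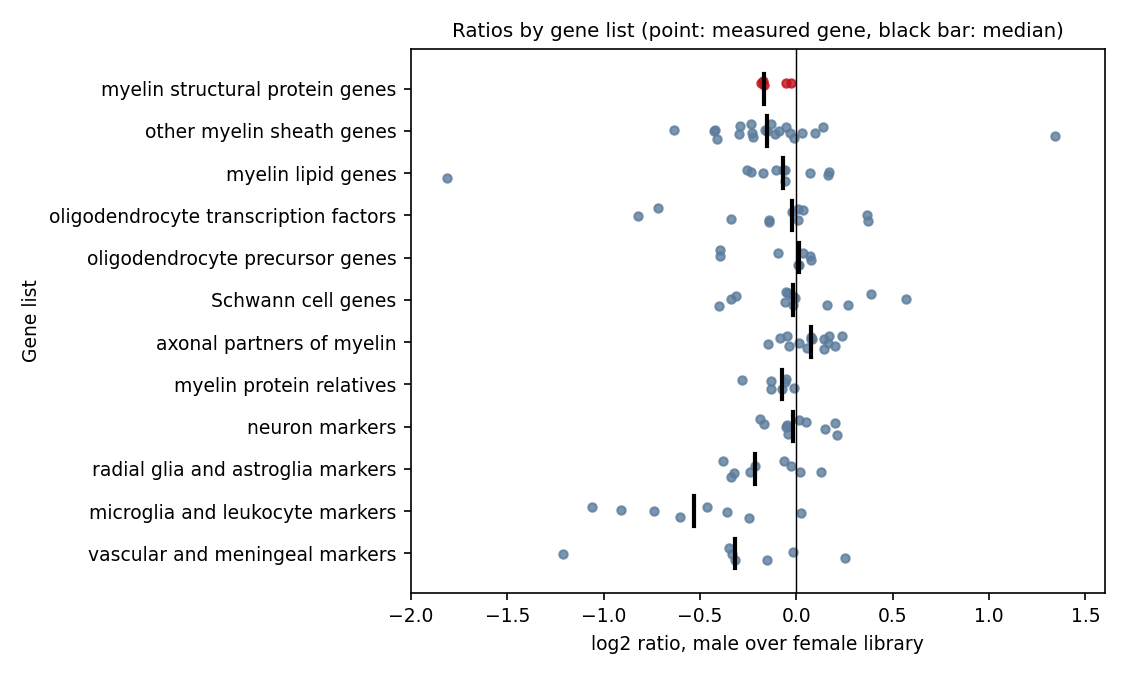
log2 ratio of male over female (x axis) of each measured gene (points) by gene list (y axis), with list medians as black bars. The 5 myelin genes (red) have a median of -0.17. mag among them goes to 0.00 with the span trend removed and to -0.10 with the expression trend removed. The other sheath genes have a median of -0.15, and axonal partners one of 0.08 (0.05 with either trend removed).

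Markers of glial, immune and vascular cells also lay mostly below 0, where 50.3% of all measured genes lay. Radial glia and astroglia markers had 7 of 9 measured genes below 0 and a median of -0.21, with sums of 2895 CPM (male) and 3237 CPM (female). Microglia and leukocyte markers had 7 of 8 below 0 and a median of -0.53 (sums of 414 and 527 CPM), with p2ry12 and spi1b listed at 0. On the female side, where 2.70% of all measured genes were called, 1 of the 8 was called. This was the complement gene c1qc, at 189 male against 420 female reads (-1.06, interval -1.32 to -0.81). Vascular and meningeal markers had 6 of 7 below 0 and a median of -0.32 (174 and 208 CPM), with cdh5 listed at 0. Here the matrix Gla protein gene mgp was called on the female side, at 68 against 168 reads (-1.21, interval -1.64 to -0.80), the only call of the 7. Neuron markers were evenly divided, 5 of 10 below 0, with a median of -0.02. The part of these differences in the myelin values was not tested.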

How the data were processed

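RNA of pooled brains was isolated with TRIzol and sequenced on an Illumina HiSeq2000, per the labels' protocols. The submitters' processing notes name Zv9 as the genome build, TopHat 1.4.1 and DESeq without their roles. Counting program, annotation and strand handling: not given in the sources used here. The 2 deposited columns headed raw count hold estimated counts: among nonzero values, 1.56% (male) and 1.92% (female) were whole to within 0.001. The deposited normalized counts are log2 values, the log2 of the raw count divided by 0.971 (male) or 1.03 (female).

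Estimated counts were summed over rows sharing an Entrez ID (27423 rows to 27095 genes), rounded and scaled over all genes with median-of-ratios size factors, 0.970 and 1.03. The log2 ratio used an added count of 0.5. Intervals of the ratio were exact Clopper-Pearson intervals on reads by sex, and differences between genes used normal intervals of log counts. Amplified reads are not independent molecules. No p-value was computed. Current symbols came from RefSeq (GRCz12tu) by Entrez ID for 22112 genes.

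The members and the gene lists were chosen with earlier results of these data known. List genes were matched by the table's symbol, then the current symbol, then an unambiguous synonym. Genes named were all members and relatives and, per pathway list, those called or else the 3 with most reads and the 1 farthest from 0. Marker genes and others, such as cldnk, cnp, anln, olig2, sox10 and olig1, were chosen after their values were seen. Levels were to be set per kilobase of coding length, but no such length was used here, and reads and genomic span replaced it. The calculation was tested on simulated counts drawn with counting noise alone. The changes put in were far larger than those of the members. It was thus no check on changes of the members' size or on variation between fish. As alternatives, scaling used TMM factors from edgeR, totals of each library or the authors' log2 values, beside other minimum levels, folds and added counts, lowess trends and rows kept apart. Software was edgeR 4.0.16 in R 4.3.3, and scipy 1.17.1, statsmodels 0.14.6, pandas 2.3.3 and numpy 2.4.6 in Python 3.11.15.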

Additional observations from a re-analysis of the deposited data

How the results depend on the processing

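Across 11 alternatives, 0 of the 5 genes were called under any. mpz, plp1a, plp1b and mbp stayed below 0 under each, mpz between -0.24 and -0.17 and mbp between -0.23 and -0.17. Minimum levels and folds cannot change a ratio, and added counts and rows kept apart hardly moved those of these genes. For the sign of the ratios, only the other scalings and the trends were therefore a check. plp1b ranged from -0.23 to -0.12 and plp1a from -0.11 to -0.04. mag ranged from -0.10 to 0.00, and 4 of 5 genes lay below 0 with the trend on span removed. The median of the 5 became -0.21 with library totals, -0.12 with the span trend removed and -0.20 with the expression trend removed. Of 10 pairwise intervals 6 excluded 0, as with the expression trend removed, and 7 with the span trend removed. The 2 calls among the pathway lists became 0 at a minimum of 5 CPM, where neither gene was measured, and 5 at 1.5-fold. The shares depended on length. Per kilobase of genomic span they were, in the male and the female library, 20.4% and 21.3% for mpz, 35.1% and 33.1% for mag, 36.8% and 38.1% for plp1b, 5.22% and 5.01% for plp1a, and 2.41% and 2.52% for mbp. With plp1a and plp1b summed, the pair held 32.1% and 32.6% of the reads. Shares per coding or transcript length were not run, and mbp had a single row, so summing its rows changed nothing. No library could be left out, since there was 1 per sex. Depth was not the limit for the 5 genes, whose intervals were at most 0.07 wide on either side, but the spread between fish is unknown.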

Other observations

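The genes myrf, enpp6 and gpr17 belong to the oligodendrocyte lineage. They were picked with their values in view and lay at different distances from 0. The gene of the myelin regulatory factor, myrf, which in mammals switches on myelin genes in maturing oligodendrocytes, stood at 1057 male against 1850 female reads (log2 ratio -0.72, interval -0.83 to -0.61), under 2-fold. The phosphodiesterase gene enpp6, a marker of newly forming oligodendrocytes in mammals, stood at 1416 against 1980 reads (-0.39, interval -0.49 to -0.30). The receptor gene gpr17, which marks committed precursors in mammals, stood at 2455 against 2486 (0.07, interval -0.01 to 0.15).

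Among the neuron markers, both neurofilament genes, which build the cytoskeleton of large axons, had ratios like those of mpz and plp1b. nefma stood at -0.17 (interval -0.20 to -0.14) and nefla at -0.19 (interval -0.23 to -0.15). Outside the list, the neuronal intermediate filament genes neff2 and neff1 lay on the other side of 0, at 0.04 and 0.05. The synaptic genes snap25a, snap25b, syt1a and sv2a stood at -0.05, 0.05, 0.21 and 0.20, on both sides of 0. The remaining neuron markers elavl3, elavl4, map2 and stmn2a stood at 0.01, -0.05, 0.15 and -0.05. None of these genes was called, beside 1.06% (male side) and 2.70% (female side) of all measured genes. The genes set beside mpz and plp1b here were picked with their values in view.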
